A study of Mus musculus with 11 samples.

Results

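Among the genes whose transcripts were much more abundant in muscle spindles than in the neighbouring muscle are 7 protein-coding genes that are little studied in the proprioceptive system: *Fam240b*, *Padi2*, *Cyfip2*, *Ndrg4*, *Vat1l*, *Msln* and *Tenm2*. They are 7 of the 22384 genes in the count table and were picked by symbol because their counts were far higher in the spindle libraries, so the size of that difference chose them and is given here as a description, with no test. The muscle spindle is a stretch receptor inside skeletal muscle, made of thin intrafusal fibers that sensory and motor axons contact and a capsule encloses, while the extrafusal fibers around it produce force. The 7 genes encode proteins of different kinds: a protein of unknown function (*Fam240b*), an enzyme that converts arginine residues of proteins to citrulline (*Padi2*), a subunit of the complex that turns on branched actin assembly (*Cyfip2*), 2 proteins that resemble enzymes and are best known from the nervous system (*Ndrg4* and *Vat1l*), and 2 proteins of the cell surface (*Msln* and *Tenm2*).

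The data are bulk RNA-seq read counts of the deep masseter, a jaw muscle rich in spindles. Mice 9, 10, 12, 13 and 16 each gave 1 spindle and 1 muscle library, and mouse 11 gave 1 of muscle, which makes 5 against 6. All mice carried both *Piezo2* EGFP-IRES-Cre and *Rosa26* tdTomato, and these alleles are shared by the 2 tissues; the RNA-seq labels give no treatment, strain or age. Bundles of spindles were dissected by hand under tdTomato fluorescence, and the muscle samples were extrafusal fibers taken next to them. In this cross tdTomato marks intrafusal fibers and capsule cells as well as sensory neurons, and a bundle holds all the cells of the organ, so a spindle library is a mixture and a gene cannot be placed in one of its cell types from these counts. In such bulk samples fewer cells of a type and less RNA per cell cannot be told apart. The authors left out 1 further spindle sample.

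The libraries held 8354260 to 23430654 counts, and mitochondrially encoded genes took 22.6% to 38.2% of them in spindle and 16.7% to 24.8% in muscle. Levels are given as CPM, the usual scaling of counts by library total, after TMM scaling, which sets the libraries against each other by the genes of middling ratio, and under it the median of all genes lay at a log2 fold change of 0.29, spindle over muscle. To be called higher or lower, a gene needed a log2 fold change of 1 or more in size, an adjusted p of 0.05 or less (edgeR's quasi-likelihood test, Benjamini-Hochberg over all 22384 genes) and a normalized count averaging 5 or more. By markers the tissues differed mostly as their labels say, but RNA of the fast extrafusal fiber markers *Tnnt3* and *Tnni2* was abundant in spindle too. All 7 intrafusal fiber markers were called higher in spindle, and their summed level was 864 to 1280 CPM there against 2.47 to 8.84 CPM in muscle. Of 6 fast extrafusal fiber markers 4 were called lower and 1, *Myh4*, higher, while *Tnni2* was not called (log2 fold change -0.74). These 6 markers summed to 14799.2 to 18205.5 CPM in spindle, above the intrafusal sum, and to 37538.8 to 62753.3 CPM in muscle. Most of the spindle sum came from *Tnnt3* (mean 9574 CPM in spindle, 19260 in muscle) and *Tnni2* (5675 and 9501 CPM). *Myh1* (397 and 14169 CPM), *Actn3* (332 and 2924 CPM) and *Mybpc2* (101 and 1709 CPM) were far lower in spindle. *Myh4* went the other way (284 and 25.4 CPM). The part of extrafusal fibers in the spindle libraries was not tested. All 11 measured axon markers, all 9 Schwann cell markers and all 7 capsule and perineurial markers were called higher as well, with summed levels in spindle and muscle of 57.8 to 95.5 against 8.96 to 18.9 CPM, 679 to 1283 against 100.3 to 351 CPM, and 260.4 to 425 against 19.2 to 34.3 CPM. The muscle libraries were not equal in these traces. Muscle 13 was highest in the sum of intrafusal markers and in that of capsule and perineurial markers. Muscle 10 was highest in Schwann cell markers and muscle 12 in axon markers. Spindle 10 was highest in intrafusal, Schwann cell and axon markers. Odorant receptor genes, which neither tissue is known for, summed to 17.2 to 228 CPM in spindle and 9.22 to 63.3 CPM in muscle. Of 4 measured markers of epidermis and salivary gland 1 was called higher in spindle, the salivary gene *Bpifa2* (21.2 ± 5.55 CPM, SD, n = 5, against 0.375 ± 0.352, SD, n = 6). *Amy1* went the other way, at 13.4 CPM in spindle against 25.4 in muscle (log2 fold change -0.93, adjusted p = 0.0015), within the fold threshold. *Krt10* was not called (0.21). The list summed to 28.0 to 46.7 CPM in spindle and 22.6 to 41.2 CPM in muscle, sums that hide these opposite changes.

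All 7 genes passed the call rule in the higher direction, which over all genes 11.0% did, and in all 7 every spindle library lay above every muscle library, as in 9.15% of all genes. Both counts follow from how the genes were picked. The genes differed among themselves in how much RNA they gave. Per kilobase of exon, the scale on which genes can be compared, the mean spindle level was 172.9 CPM for *Fam240b*, 20.2 for *Padi2*, 8.87 for *Msln*, 7.50 for *Ndrg4*, 3.95 for *Cyfip2*, 1.30 for *Tenm2* and 0.867 for *Vat1l*. *Fam240b* thus stood above 99.3% of the genes with a length on this scale, and *Vat1l* near the middle, above 48.1%. Neighbours in this order were not tested against each other, and with the length of the longest transcript in place of all exons *Msln* came to 12.6 and *Ndrg4* to 11.8 CPM per kilobase. They differed also in how steady they were across the 5 spindle libraries: the coefficient of variation was 13.9% for *Ndrg4* and 14.9% for *Cyfip2*, 22.2% for *Tenm2*, 24.8% for *Msln* and 28.0% for *Padi2*, and 43.0% for *Fam240b* and 48.2% for *Vat1l*, where the median over the 10671 genes whose normalized counts averaged 50 or more was 19.1%. *Vat1l*, which averaged 38.6 and had 30 to 145 reads per spindle library, is outside that set.

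**Figure D1:**
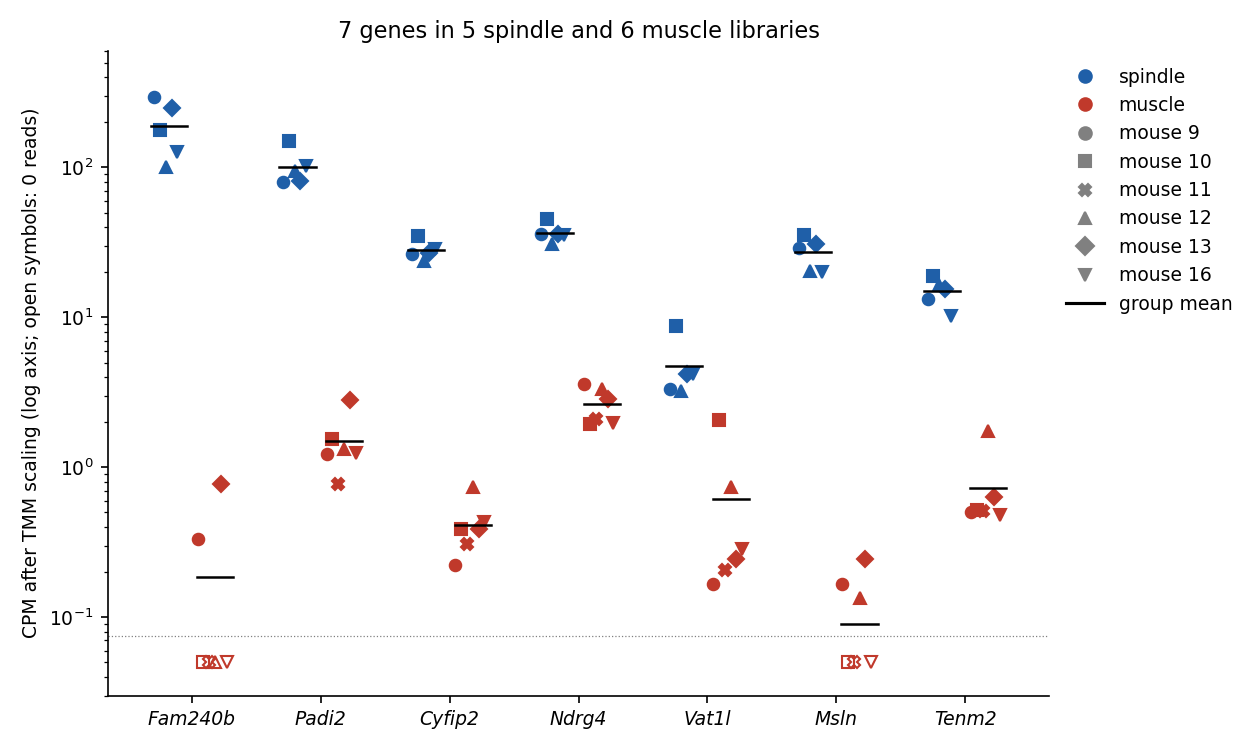
Level of each of the 7 genes in every library as CPM after TMM scaling, on a log axis, with spindle in blue, muscle in red, a symbol for each mouse and a line at the group mean; open symbols below the dotted line are libraries with 0 reads. In all 7 genes the spindle libraries sit above the muscle libraries, with the narrowest gap in *Vat1l*, where muscle 10 reached 2.06 CPM and the lowest spindle library 3.24 CPM.

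*Fam240b* lies on chromosome 13 at 64481246-64497792 (GRCm38, minus strand), with 3 exons that sum to 1097 bases, and its product has no established function. Its level was 296 CPM in spindle 9, 177 in spindle 10, 101 in spindle 12, 248 in spindle 13 and 126 in spindle 16. In muscle it was 0.777 CPM in muscle 13 and 0.333 in muscle 9, from 16 and 6 reads, and 0 in the other 4 libraries, where a count of 0 allows up to 0.144 CPM in the deepest (muscle 16) and 0.386 in the shallowest (muscle 10). So 13248 of its 13270 reads came from spindle. The means were 189.7 ± 81.6 CPM (SD, n = 5) in spindle and 0.185 ± 0.319 (SD, n = 6) in muscle, which on the log2 scale differ by 9.74 (standard error 0.71), the 2nd largest of the table. Without muscle 13 it came to 11.16. The lowest spindle library still held 129.96 times the CPM of the highest muscle library. Muscle 13 and muscle 9, the 2 muscle libraries with *Fam240b* reads, also had the highest summed levels of intrafusal fiber markers. These were at 0.876% and 0.634% of the spindle mean of those markers, and *Fam240b* at 0.41% and 0.176% of its own. Muscle 13 was highest in capsule and perineurial markers too, at 10.2% of their spindle mean, with muscle 12 at 9.27% and muscle 9 at 8.09%. The part of intrafusal fibers or capsule cells in the *Fam240b* values was not tested.

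*Fam240a*, the other gene of the family, lies on chromosome 9 at 110914739-110916861. It was called higher in spindle too, at a far lower level. It had 3.67, 2.41, 0.752, 2.17 and 1.62 CPM in spindle 9, 10, 12, 13 and 16 and no read in the 6 muscle libraries. That makes 149 reads against 0, at least 65.1-fold higher against a floor of 3 reads over the muscle group (adjusted p = 3.5e-06). Both genes were lowest in spindle 12 and highest in spindle 9. Per kilobase, *Fam240b* made up 97.6% ± 0.572 (SD, n = 5) of the family's RNA in spindle, and in muscle 100% of the few reads were its own.

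*Padi2* (chromosome 4, 140906344-140952586, plus strand, 17 exons) encodes a peptidylarginine deiminase, a calcium-dependent enzyme that is known in glia and muscle. It was at 79.4 CPM in spindle 9, 149 in spindle 10, 94.0 in spindle 12, 81.7 in spindle 13 and 102 in spindle 16, so that spindle 10 stood above the other 4. In muscle it ranged from 0.772 CPM in muscle 11 to 2.82 CPM in muscle 13. All 6 muscle libraries held reads of it, and the groups were far apart, with the lowest spindle library at 28.2 times the highest muscle library. The means were 101.2 ± 28.4 CPM (SD, n = 5) and 1.49 ± 0.698 CPM (SD, n = 6), and differed by 6.07 on the log2 scale (standard error 0.27). Of its exonic bases, 2.97% are shared with the antisense gene Gm13031, so a small part of the reads could belong to that gene. The 300 bases around its start (RefSeq, GRCm38.p6, chr4:140906110-140906409, plus strand, 250 bases before the start and 50 after it) are printed. They hold a match to the core of the site of EGR factors, among other motif matches described further on. Capitals mark E-boxes (CANNTG) and this core (GTGGGC, here on the other strand).
Padi2 promoter: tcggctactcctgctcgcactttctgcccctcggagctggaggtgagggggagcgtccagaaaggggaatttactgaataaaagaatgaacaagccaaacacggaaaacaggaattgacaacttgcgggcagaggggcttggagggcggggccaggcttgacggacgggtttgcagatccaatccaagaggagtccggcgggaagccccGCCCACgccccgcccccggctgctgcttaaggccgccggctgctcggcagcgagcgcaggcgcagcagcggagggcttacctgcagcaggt

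The *Padi* genes form a cluster on chromosome 4, in which *Padi4* (140745865-140774236), *Padi3* (140785365-140810648) and *Padi1* (140812983-140845778) lie on the minus strand next to *Padi2*. Their products use the same reaction on other proteins: Padi4 is the nuclear, histone-modifying form of blood cells, while Padi1 and Padi3 act in skin and hair. *Padi4* was called higher in spindle, at 1.78, 2.05, 1.85, 3.29 and 1.58 CPM in spindle 9, 10, 12, 13 and 16 and at most 0.267 CPM in muscle (158 against 6 reads, log2 fold change 4.96, standard error 0.65, adjusted p = 9.9e-06). *Padi3* had 27 reads in spindle and 0 in muscle, at least 11.8-fold higher against 3 reads over the muscle group (adjusted p = 0.0068), but its mean normalized count of 2.17 was under the minimum and it was not called. *Padi1* had 9 reads in spindle and 2 in muscle, a ratio of 5.90 with an exact 95% interval of 1.22 to 56.1 that covers counting error only, and was not called (adjusted p = 0.19). *Padi6* was not analysed here. By RNA per kilobase *Padi2* was the main gene of the cluster in both tissues, with 97.2% ± 0.815 (SD, n = 5) of the sum of the 4 genes in spindle and 93.1% ± 10.9 (SD, n = 6) in muscle.

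*Cyfip2* (chromosome 11, 46193850-46312859, minus strand, 33 exons) encodes a subunit of the WAVE regulatory complex, which holds a WAVE protein inactive until the small GTPase Rac1 releases it to start branched actin, and it also binds FMRP, the fragile X protein. Its level was 26.4, 34.8, 23.6, 26.7 and 28.6 CPM in spindle 9, 10, 12, 13 and 16. In muscle it lay between 0.222 CPM (muscle 9) and 0.734 CPM (muscle 12). The spindle libraries were close to each other and the lowest of them stood at 32.2 times the highest muscle library. The means were 28.0 ± 4.17 CPM (SD, n = 5) and 0.412 ± 0.174 CPM (SD, n = 6), a log2 difference of 6.09 (standard error 0.22) from 2192 against 41 reads. Its promoter window (chr11:46312309-46312608, minus strand, same source and marks) is shown beside that of *Padi2* as the gene with the most similar size of difference, and it is rich in G and C.
Cyfip2 promoter: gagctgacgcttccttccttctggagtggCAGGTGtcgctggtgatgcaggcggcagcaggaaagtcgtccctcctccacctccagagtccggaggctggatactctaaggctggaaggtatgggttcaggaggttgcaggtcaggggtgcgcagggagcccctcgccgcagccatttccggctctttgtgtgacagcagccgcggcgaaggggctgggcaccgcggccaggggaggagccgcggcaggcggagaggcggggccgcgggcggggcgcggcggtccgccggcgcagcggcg

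*Cyfip1* (chromosome 7, 55841745-55932602), the paralog that can take the same place in the WAVE complex, was not called. It was at 30.0 to 37.9 CPM in spindle and 22.8 to 31.0 CPM in muscle (log2 fold change 0.28, standard error 0.12, adjusted p = 0.062). The 2 tissues therefore differed in the makeup of the pair: per kilobase, *Cyfip2* was 58.3% ± 1.74 (SD, n = 5) of the 2 genes in spindle and 2.42% ± 0.929 (SD, n = 6) in muscle. In single libraries this share was 57.0% to 60.7% in spindle and 1.39% to 4.16% in muscle. Of the 10 other genes of the WAVE complex list, 4 were called higher in spindle and none lower, where 11.0% of all genes were called higher and 1.80% lower. They were *Wasf1* (log2 fold change 2.09, standard error 0.58, adjusted p = 0.0090) and *Wasf3* (1.17, 0.30, 0.0052), the WAVE forms best known from neurons, *Abi2* (1.5, 0.18, 4.7e-06), an adaptor of the complex, and *Nckap1l* (1.78, 0.30, 0.00014), the blood cell form of the Nap1 subunit. Of these, *Abi2* and *Nckap1l* had every spindle library above every muscle library, as 9.15% of all genes did, and *Wasf1* and *Wasf3* overlapped. The general forms *Nckap1* (0.07) and *Wasf2* (0.06), with *Abi1* (0.18), *Abi3* (0.49), *Brk1* (-0.01) and *Rac1* (-0.34), were not called, and the median over the 10 genes was 0.34 against 0.29 over all genes. *Abi3* and *Rac1* share 75.8% and 51.4% of their exonic bases with other genes, so their counts are uncertain. Without spindle 10, 12 and 13, the libraries chosen as those with most odorant receptor reads, *Wasf1* (1.31, adjusted p = 0.31) and *Wasf3* (1.01, adjusted p = 0.11) lost their call. Of the 4 FMRP partners, *Fxr1*, a paralog of FMRP that is abundant in striated muscle, was called lower in spindle. It was at 218 to 308 CPM in spindle and 462 to 611 CPM in muscle (log2 fold change -1.03, standard error 0.13, adjusted p = 6.2e-06). This value is at the fold threshold, and without spindle 12 (-0.96) or muscle 11 (-0.99), as with the mouse as a block (-0.99), the gene was not called. *Fmr1* (0.40), *Fxr2* (-0.55) and *Eif4e* (-0.30) were not called.

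*Ndrg4* (chromosome 8, 95676980-95715119, plus strand, 20 exons) belongs to a small family with an enzyme-like fold and no known enzyme activity, and is best known from brain and heart. It was at 36.0, 45.0, 31.0, 36.0 and 35.5 CPM in spindle 9, 10, 12, 13 and 16, the steadiest of the 7 genes. In muscle it was at 3.61 CPM in muscle 9, 1.93 in muscle 10, 2.11 in muscle 11, 3.34 in muscle 12, 2.87 in muscle 13 and 1.96 in muscle 16. It was thus well measured in muscle as well, from 271 reads, and the lowest spindle library stood at 8.58 times the highest muscle library. The means were 36.7 ± 5.11 CPM (SD, n = 5) and 2.64 ± 0.737 CPM (SD, n = 6), a log2 difference of 3.78 (standard error 0.18), the 1500th largest of the table. Across the 5 spindle libraries its course was nearly that of *Cyfip2*: the log2 CPM values of the 2 genes, each centered on its own mean, differed by a root mean square of 0.047. The other 20 pairs of the 7 genes differed by 0.20 to 0.76. The pair is named as the nearest of them, and both genes varied little: a flat line differed by 0.17 from *Ndrg4* and by 0.18 from *Cyfip2*. How common such a likeness is among all genes was not examined. RefSeq gives this gene 4 start windows, and the one printed (chr8:95677513-95677812, plus strand, same marks) has the most EGR cores, 3, of which the last overlaps an E-box.
Ndrg4 promoter: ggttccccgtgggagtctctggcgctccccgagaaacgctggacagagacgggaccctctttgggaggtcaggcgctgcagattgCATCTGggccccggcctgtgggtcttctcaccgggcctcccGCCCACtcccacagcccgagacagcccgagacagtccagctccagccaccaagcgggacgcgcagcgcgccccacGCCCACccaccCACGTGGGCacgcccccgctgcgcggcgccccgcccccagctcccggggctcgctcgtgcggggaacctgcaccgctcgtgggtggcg

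Of the other 3 genes of the family, 1 was called. *Ndrg1*, a stress and hypoxia gene of Schwann cells and epithelia, was called higher in spindle (log2 fold change 1.75, standard error 0.18, adjusted p = 5.5e-07), at 67.5 to 91.8 CPM against 14.3 to 33.0 CPM, and 8.43% of its exonic bases are shared with other genes. *Ndrg2*, the form of glia and muscle, was at 955 to 1480 CPM in spindle and 1512 to 2018 CPM in muscle, a log2 fold change of -0.67 (adjusted p = 0.0011) that is within the fold threshold. *Ndrg3* was not called (-0.06, adjusted p = 0.71). By RNA per kilobase *Ndrg2* so outweighed the rest that *Ndrg4* made up 2.08% ± 0.357 (SD, n = 5) of the family in spindle and 0.0995% ± 0.0329 (SD, n = 6) in muscle.

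*Vat1l* (chromosome 8, 114205612-114374071, plus strand, 10 exons) resembles the synaptic vesicle membrane protein VAT-1 and quinone oxidoreductases, and its role is little known. It was the lowest of the 7 genes. Its level was 8.73 CPM in spindle 10 and 3.33, 3.24, 4.17 and 4.19 CPM in spindle 9, 12, 13 and 16. In muscle it was 2.06 CPM in muscle 10, 0.734 in muscle 12 and 0.167 to 0.287 in the other 4 libraries. Mouse 10 was therefore highest in both tissues, and the lowest spindle library stood at 1.57 times muscle 10. The means were 4.73 ± 2.28 CPM (SD, n = 5) and 0.616 ± 0.738 CPM (SD, n = 6), a log2 difference of 3.23 (standard error 0.52) from 376 against 45 reads. Without muscle 10 it came to 3.86. The sum of Schwann cell markers was also highest in spindle 10, at 1283 CPM, and in muscle 10, at 351 CPM, but in spindle the order of the other libraries differed: spindle 9 was at 106% of the spindle mean for these markers and at 70.4% for *Vat1l*. Spindle 10 was the highest library for 6 of the 7 genes and for intrafusal and axon markers as well. In percent of the spindle mean, muscle 10 was at 43.6% for *Vat1l* and 41.2% for these markers, and muscle 12 at 15.5% and 29.9%. The part of Schwann cells in the *Vat1l* values was not tested.

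*Vat1* (chromosome 11, 101458745-101466230), the close relative, was at 24.5 to 43.2 CPM in spindle and 16.0 to 21.9 CPM in muscle. The difference, 0.89 in log2 with a standard error of 0.14 (adjusted p = 8.3e-05), was under the fold threshold, so it was not called, although every spindle library lay above every muscle library. Per kilobase *Vat1l* was the minor gene of the pair in both tissues, with 6.29% ± 2.59 (SD, n = 5) in spindle and 1.61% ± 2.01 (SD, n = 6) in muscle.

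*Msln* (chromosome 17, 25748613-25754378, minus strand, 15 exons) encodes mesothelin, a surface protein held by a lipid anchor that marks the mesothelium lining the body cavities and can bind the mucin Muc16. It was at 29.2, 35.4, 20.3, 30.8 and 20.2 CPM in spindle 9, 10, 12, 13 and 16. In muscle it was 0.243 CPM in muscle 13, 0.167 in muscle 9 and 0.133 in muscle 12, with no read in muscle 10, 11 and 16, where a count of 0 allows up to 0.386 CPM in muscle 10. The 6 muscle libraries together held 10 reads against 2034 in spindle, and the lowest spindle library stood at 83.1 times the highest muscle library. The means were 27.2 ± 6.73 CPM (SD, n = 5) and 0.0905 ± 0.105 CPM (SD, n = 6), a log2 difference of 8.0 (standard error 0.37), or 8.59 without muscle 13.

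The markers of mesothelium itself were scarce. Of the 5 that were measured of 9, 3 were called higher in spindle: *Krt19*, an epithelial keratin (6.06 ± 1.46 CPM against 0.244 ± 0.140, SD, n = 5 and 6), *Wt1*, a transcription factor of mesothelium and kidney (0.952 ± 0.640 against 0.0586 ± 0.0805), and *Muc16* (0.682 ± 0.800 against 0.0296 ± 0.0524). *Krt18* and *Bnc1* had 18 and 7 reads in spindle and were not called. None of the 5 was at 0 in all spindle libraries. Their sum was 5.18 to 10.3 CPM in spindle and 0.129 to 0.667 CPM in muscle, and the part of mesothelial cells in the *Msln* values was not tested. *Muc16*, the binding partner, had no read in spindle 16, 0.111 CPM in spindle 9, 0.241 in spindle 13, 1.26 in spindle 10 and 1.79 in spindle 12, and so did not follow *Msln* from library to library. Its 56 reads in spindle and 2 in muscle make a ratio of 36.7 (exact 95% interval 9.69 to 310.4, for counting error only; adjusted p = 0.0047), and its normalized count averaged 5.06, just above the minimum. Without spindle 10 (log2 fold change 4.24 in place of 4.62, adjusted p = 0.018) or spindle 12 (3.82, adjusted p = 0.036) it was not called, although fold and p still passed, so the count minimum decided. *Mslnl* (25736042-25748330), the mesothelin-like gene beside *Msln* on the other strand, had 27 against 9 reads and was not called (adjusted p = 0.13).

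*Tenm2* (chromosome 11, 36006656-37235964, minus strand, 35 exons over 1229309 bases) encodes teneurin-2, a large transmembrane protein that binds latrophilins and, through them, FLRT proteins across synapses and between growing axons. It was at 13.3, 18.8, 16.5, 15.6 and 10.1 CPM in spindle 9, 10, 12, 13 and 16. In muscle it was 1.73 CPM in muscle 12 and 0.479 to 0.632 CPM in the other 5 libraries. Muscle 12 thus stood apart from the rest of its group, and the lowest spindle library was still at 5.85 times that level. The means were 14.9 ± 3.31 CPM (SD, n = 5) and 0.729 ± 0.495 CPM (SD, n = 6), a log2 difference of 4.35 (standard error 0.29), or 4.79 without muscle 12. The sum of the axon markers was likewise highest in muscle 12, at 18.9 CPM and 25.4% of the spindle mean, where *Tenm2* was at 11.7% of its own, and in spindle both were highest in spindle 10 and lowest in spindle 16. The part of axons in the *Tenm2* values was not tested. The RefSeq window of *Tenm2* (chr11:36944192-36944491, minus strand, same source and marks) lies at a start inside the gene, far downstream of the 5′ end at 37235964 in the annotation used here, so it is not comparable with windows at the 5′ end of a gene. It is printed as the one RefSeq window at hand for this gene.
Tenm2 internal start: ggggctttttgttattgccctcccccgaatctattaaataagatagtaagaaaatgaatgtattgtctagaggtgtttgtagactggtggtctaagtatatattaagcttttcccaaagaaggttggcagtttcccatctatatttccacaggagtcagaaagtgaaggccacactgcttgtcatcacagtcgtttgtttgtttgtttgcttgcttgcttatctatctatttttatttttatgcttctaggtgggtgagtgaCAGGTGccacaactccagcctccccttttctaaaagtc

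None of the other 3 teneurins was called, 1 of 4 latrophilins and 2 of 3 FLRT genes were called higher, and over all genes 11.0% were. *Tenm3* was at 8.78 to 17.1 CPM in spindle and 4.99 to 13.1 CPM in muscle (log2 fold change 0.79, adjusted p = 0.0063), *Tenm4* had a log2 fold change of 1.11 (adjusted p = 0.069, and 0.033 with limma-voom, where it was called), and *Tenm1* had 40 against 9 reads (2.23, adjusted p = 0.12). Per kilobase *Tenm2* and *Tenm3* were about level in spindle, at 1.30 and 1.35 CPM, and in muscle *Tenm3* was the main form, with *Tenm2* at 7.30% ± 4.34 (SD, n = 6) of the family against 47.4% ± 8.19 (SD, n = 5) in spindle. Of the 4 latrophilins, the receptors of teneurins, *Adgrl3* was called higher in spindle (log2 fold change 2.98, standard error 0.42, adjusted p = 2.6e-05). It was at 5.67, 4.33, 4.63 and 5.62 CPM in spindle 9, 10, 12 and 13 and at 0.721 CPM in spindle 16, which lay within the muscle range of 0.360 to 0.867 CPM, so that 4 of the 5 spindle libraries stood above muscle. *Adgrl1* (-0.42), *Adgrl2* (0.52) and *Adgrl4* (0.04), an endothelial member that is not a known teneurin receptor, were not called. Of the 3 FLRT genes, *Flrt3* (2.44, standard error 0.50, adjusted p = 0.00092) and *Flrt1* (1.82, standard error 0.66, adjusted p = 0.035) were called higher, both at low levels of 2.14 ± 1.17 and 1.05 ± 0.528 CPM (SD, n = 5) in spindle. *Flrt1* overlapped between the tissues and lost its call when any one of spindle 9, 10, 12 and 13 or muscle 9, 11 and 13 was left out, with adjusted p values of 0.054 to 0.080. *Flrt2* (0.78, adjusted p = 0.0021) was not called.

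**Figure D2:**
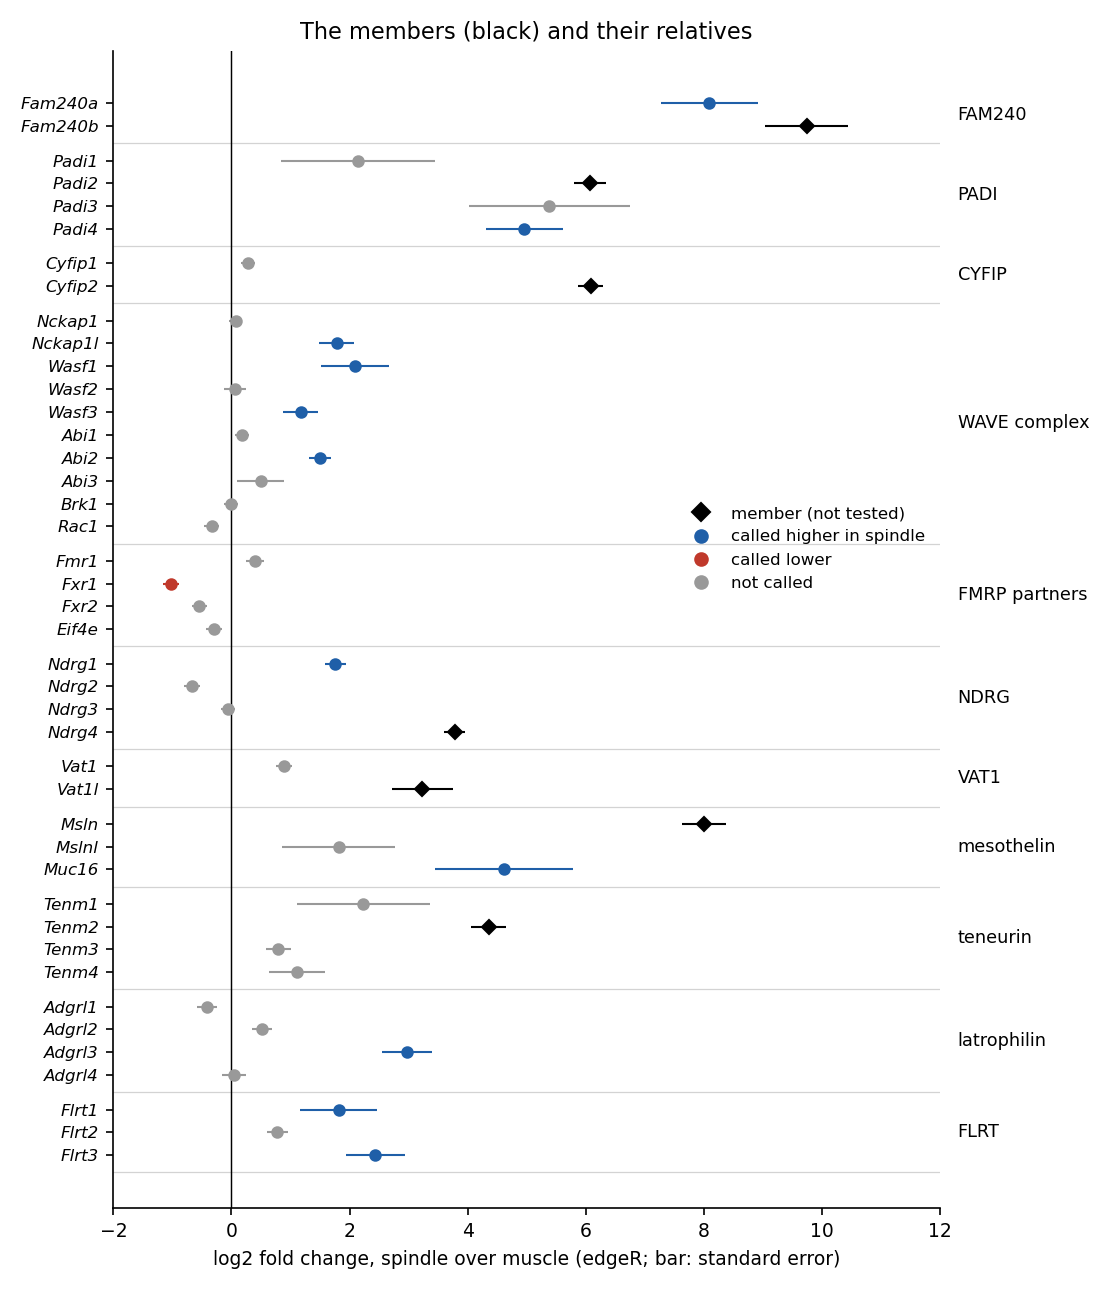
Log2 fold change, spindle over muscle, of the 7 genes (black diamonds, a description) and their measured relatives by family (points), with the standard error from edgeR as bars; the values of *Fam240a* and *Padi3*, with 0 reads in muscle, depend on the fit and are no bounds. Of 35 measured relatives 11 were called higher (blue), 1 lower (red) and 23 neither (grey).

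Over all these families and partners, 35 of 36 listed genes were measured and 11 of them, or 31.4%, were called higher in spindle, beside 11.0% of all genes, and 1 lower, beside 1.80%. The median log2 fold change of the 35 was 0.79, and that of all genes 0.29. In the CYFIP, VAT1 and teneurin families the picked gene was the one that passed the call rule, and in the FAM240, PADI, NDRG and mesothelin groups 1 relative passed it as well.

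**Figure D3:**
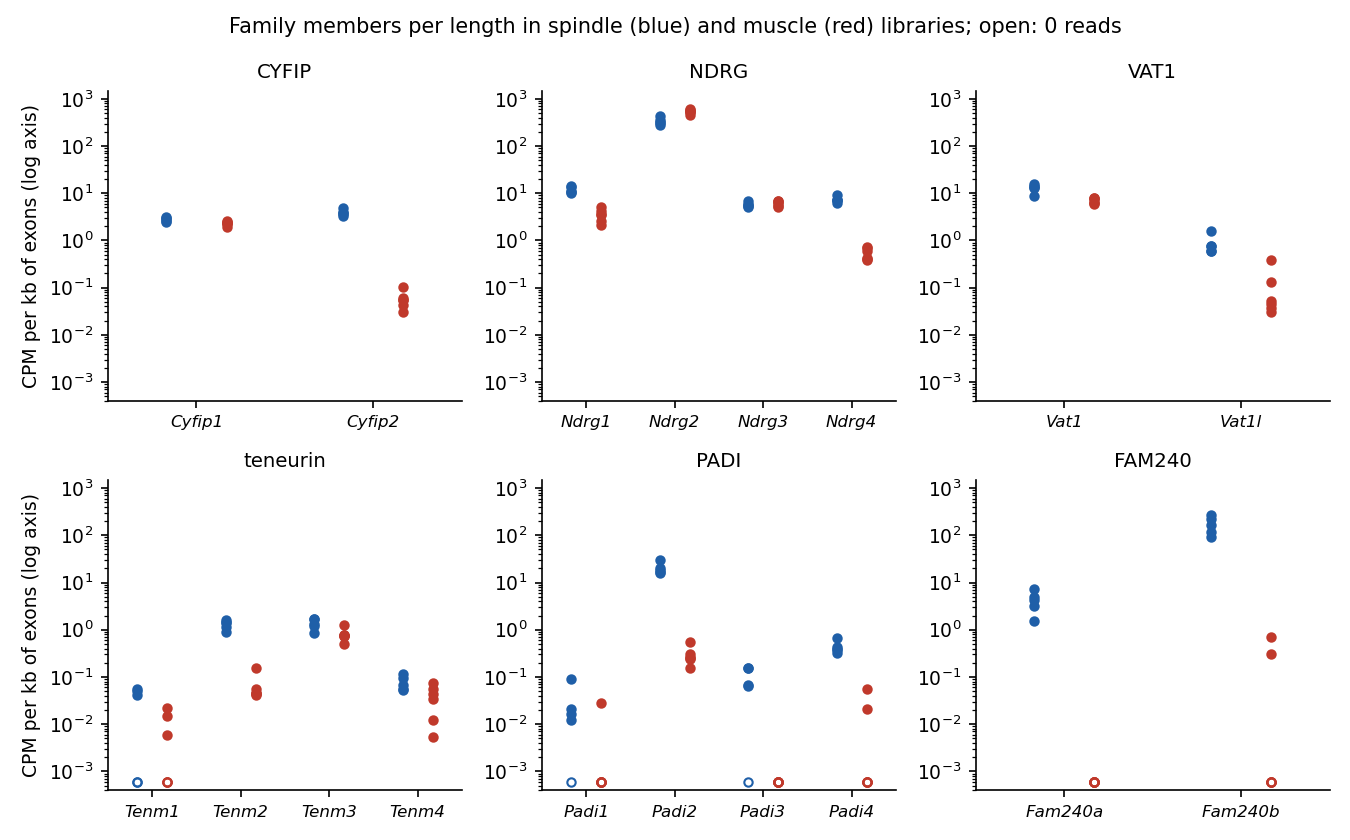
CPM per kilobase of exons of 6 gene families in each spindle (blue) and muscle (red) library, on log axes, with open symbols for 0 reads. All spindle libraries lay above all muscle libraries in the picked genes *Cyfip2*, *Ndrg4*, *Vat1l*, *Tenm2*, *Padi2* and *Fam240b*, which follows from how they were picked. The same held for the relatives *Fam240a*, *Padi4*, *Ndrg1* and *Vat1*, and for 9.15% of all genes. *Ndrg2* was separated in the other direction. *Cyfip1*, *Ndrg3*, *Padi1*, *Padi3*, *Tenm1*, *Tenm3* and *Tenm4* overlapped between the tissues.

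Within mice the difference had the same direction throughout. In all 5 mice with both libraries, spindle minus muscle in log2 CPM (prior count 2) was above 0 for each of the 7 genes. This direction was fixed by how the genes were picked: in each of them every spindle library lay above every muscle library, as in 9.15% of all genes. The sizes are given as a description. The lowest, median and highest of the 5 differences were 8.10, 9.69 and 10.50 for *Fam240b*, 6.32, 6.66 and 8.18 for *Msln* and 4.80, 6.01 and 6.48 for *Padi2*. They were 4.79, 5.71 and 6.27 for *Cyfip2*, 3.16, 4.38 and 4.89 for *Tenm2*, 3.17, 3.60 and 4.46 for *Ndrg4* and 1.97, 3.39 and 3.58 for *Vat1l*. The prior count pulls these values toward 0 where muscle had few reads, as for *Fam240b* and *Msln*.

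The traces of the 7 genes in muscle followed no common order. *Fam240b*, *Msln* and *Padi2* were highest in muscle 13, *Cyfip2* and *Tenm2* in muscle 12, *Ndrg4* in muscle 9 and *Vat1l* in muscle 10. To describe this, each gene's log2 CPM was centered within each tissue, which removes the difference that chose the genes. It was set against the mean log2 CPM of the measured genes of each marker list, treated the same way. These means are not the sums given elsewhere, and in them a gene with few reads weighs as much as any other. The list with the smallest root mean square difference over the 11 libraries was that of intrafusal fibers for *Msln* (0.24), *Padi2* (0.36) and *Fam240b* (0.54), that of axons for *Cyfip2* and *Tenm2* (0.26 each), that of Schwann cells for *Vat1l* (0.48) and that of capsule and perineurial cells for *Ndrg4* (0.31). For scale, a profile with no deviation at all gave 0.54, 0.44, 0.94, 0.32, 0.47, 0.83 and 0.28 for the 7 genes in the same order, so that for *Ndrg4* no list came nearer than a flat line, and for *Padi2* and *Cyfip2* the gain was small. For *Msln* the mesothelial list lay farther off (0.65) than a flat line. The nearest list depended on the muscle libraries, where most of the 7 genes had few reads. Over the 5 spindle libraries alone it was another list for 6 of the 7 genes: capsule and perineurial cells for *Fam240b* (0.36, with intrafusal fibers at 0.44), axons for *Padi2* (0.31), epidermis and salivary gland for *Msln* (0.13, with intrafusal fibers at 0.15), intrafusal fibers for *Cyfip2* (0.15) and *Ndrg4* (0.10), and fast extrafusal fibers for *Vat1l* (0.21, with Schwann cells at 0.34). For *Tenm2* it was again axons (0.14). The differences are a description and place no gene in a cell type.

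**Figure D4:**
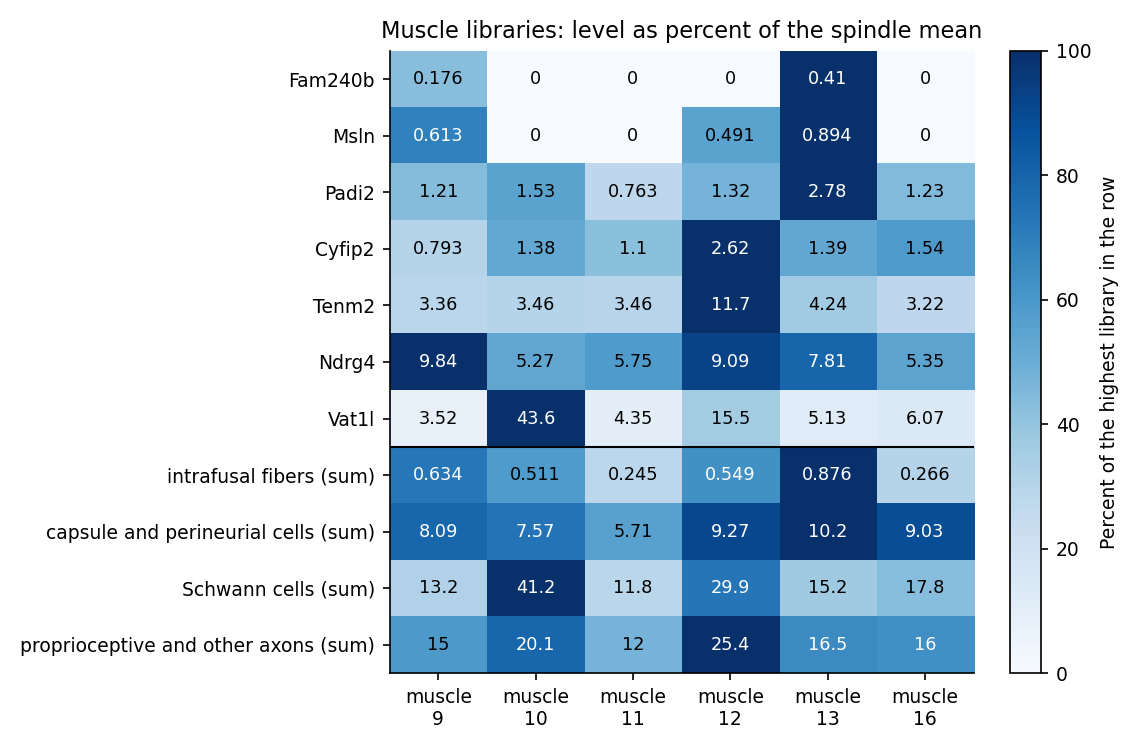
Level of the 7 genes and of 4 summed marker lists in each muscle library, printed as percent of the mean level in spindle, with shading from 0 to the highest library of each row. Muscle 13 was highest for *Fam240b* (0.41%), *Msln* (0.894%), *Padi2* (2.78%), intrafusal fiber markers (0.876%) and capsule and perineurial markers (10.2%). Muscle 10 was highest for *Vat1l* (43.6%) and Schwann cell markers (41.2%), and muscle 12 for *Tenm2* (11.7%), *Cyfip2* (2.62%) and axon markers (25.4%).

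**Figure D5:**
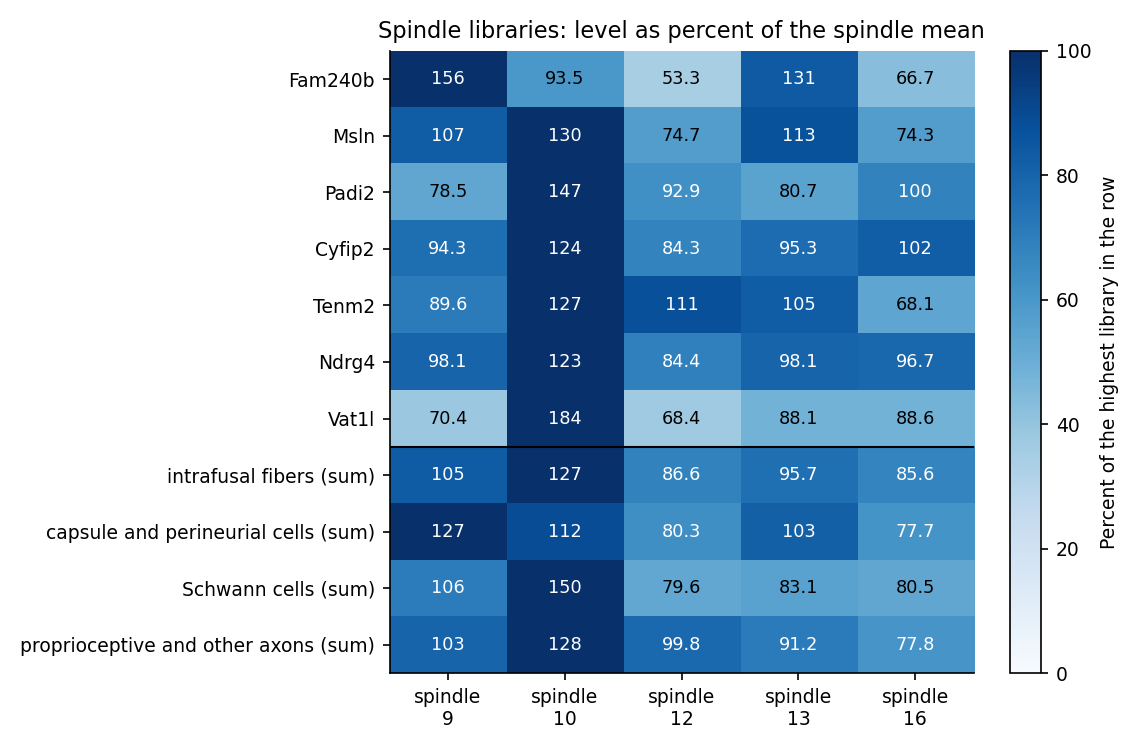
The same 7 genes and marker sums in each spindle library as percent of their spindle mean. Spindle 10 was highest for all but *Fam240b* and the capsule and perineurial markers, which were highest in spindle 9, and the spread was widest for *Vat1l* (68.4% to 184%) and *Fam240b* (53.3% to 156%).

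For each of the 7 genes the 3 most similar genes were sought among the same 10671 genes, by the smallest root mean square difference of log2 CPM (prior count 2, each profile centered on its own mean) over the 11 libraries. Such a likeness is set mostly by the size of the tissue difference. *Fam240b* was nearest to *Myh13*, a superfast myosin heavy chain (0.50), *Tnnc1*, the slow and cardiac troponin C (0.55), and *Myl10*, a myosin light chain (0.57). *Msln* was nearest to *Wnt10a*, a Wnt ligand (0.53), *Myl2*, the slow and cardiac regulatory light chain (0.53), and *Guca1a*, a guanylate cyclase activator (0.56). *Padi2* and *Cyfip2* were among each other's 3 nearest (0.47), and both had *Tpm3*, the slow tropomyosin (0.52 and 0.45), beside *Wnt10a* (0.49) for *Padi2* and the proline transporter gene *Slc6a7* (0.42) for *Cyfip2*. *Ndrg4* was nearest to *Fzd10*, a Wnt receptor (0.26), *Wnt6*, a Wnt ligand (0.29), and *Slc2a1*, the glucose transporter GLUT1 (0.31). *Tenm2* was nearest to *Bmp7*, a growth factor (0.41), *Wnt6* (0.45) and *Ildr2*, a membrane protein (0.45). For *Vat1l* the 2 nearest were the myelin genes *Ncmap* (0.36) and *Mbp* (0.40). With a prior count of 0.5 all 3 genes stayed for *Tenm2*, 2 of 3 for *Fam240b*, *Padi2*, *Cyfip2* and *Ndrg4*, both named genes for *Vat1l*, and 0 of 3 for *Msln*.

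RefSeq windows of 300 bases were at hand for 5 of the 7 genes, *Ndrg4* with 4 windows, which makes 8 windows. G and C made up 63.3% of the *Padi2* window, 70.7% of that of *Cyfip2*, 56.3% to 74.3% of those of *Ndrg4*, 54.3% of that of *Vat1l* and 40.0% of that at the internal start of *Tenm2*, where the median of 32851 windows was 52.7%. Motifs were searched as letters on both strands. An EGR core (GTGGGC), which 21.3% of all windows hold, was found once in *Padi2*, at position -41 from the start, and in 2 windows of *Ndrg4*, including the printed one with 3. An E-box (CANNTG, in 72.3% of all windows) was found in 6 of the 8 windows, all but those of *Padi2* and *Vat1l*. An ETS core (GGAAGT, in 23.8% of all) and an M-CAT motif (CATTCC, in 14.7% of all) were in none. A TATA box (TATAAA, in 13.6% of all) was in the last window of *Ndrg4*, at position -30. The NFAT core (GGAAAA) was in the windows of *Padi2* and *Tenm2*, the CCAAT box (CCAAT) in those of *Padi2* and 2 of *Ndrg4*, and the GC box (GGGCGG) in those of *Padi2*, *Cyfip2* and 2 of *Ndrg4*, beside 23.4%, 37.4% and 35.7% of all windows. A match is a run of letters and not a site of binding.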

How the data were processed

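Spindle and muscle tissue of the mouse deep masseter was sequenced as polyadenylated RNA (single-end reads). Alignment by the authors used STAR 2.4.2a and GRCm38, with uniquely placed reads kept, and the deposited counts are unnormalized reads summed over each gene. The table also holds values that the authors made with DESeq2 1.16.1 and that were not used here: the deposited log2 values (regularized log values per library and log2 fold changes), the deposited signal (normalized counts per library and their mean) and the deposited p-values. The 22 per-sample columns of such values were left out.

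The counts of all 22384 genes were fitted here with edgeR 4.0.16 in R 4.3.3 (TMM scaling, robust quasi-likelihood test, no term for the mouse), with the call rule given in the text; the fit was tested on simulated data. CPM values are after TMM scaling, and their precision is limited by depth, 8354260 to 23430654 counts per library. Intervals and floors (3 reads) hold for counting error alone, as PCR copies are not separate molecules. Replicates are mice, and equal mouse numbers pair the samples, since both tissues came from one mouse; over 12557 genes, the deviations of spindle and muscle from their group means correlated at 0.08, 0.31, 0.17, 0.26 and 0.29 in mice 9, 10, 12, 13 and 16. Alternatives were other scalings and tests (DESeq2 1.42.0, limma 3.58.1), a filter on low counts, the mouse as a block and libraries left out. Positions and exon lengths came from GENCODE vM21 by symbol (21347 genes matched, 95.4%), an earlier release than the authors used, and promoters from RefSeq (GRCm38.p6). Whether counting used strand is not given in the sources used here, so shared exonic bases were counted on both strands.

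The 7 genes and the lists of relatives and markers were chosen with earlier results of these data known. Named are the 7 genes, all measured genes of their families and the latrophilins, called genes of the longer lists and the 3 most similar genes of each, of which 1 is not reported here. Genes of longer lists that were not called are named to complete the counts. The profiles centered within tissues were chosen after the values were seen. Python 3.11.15 with matplotlib 3.10.9 made the plots.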

Additional observations from a re-analysis of the deposited data

Results flagged for a closer look

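In 84 groups of 5 or 6 libraries (the 7 genes and their measured relatives, in each tissue), 11 had 1 library far from the others, its gap to the nearest library taking up most of the range; with a 95% criterion a few such groups are to be expected by chance. Among the 7 genes, *Vat1l* was high in spindle 10 (8.73 CPM, next 4.19) and in muscle 10 (2.06 CPM, next 0.734), and *Tenm2* in muscle 12 (1.73 CPM, next 0.632). Among the relatives, muscle 10 was high for *Wasf3* (2.71 CPM), *Tenm3* (13.1 CPM) and *Adgrl1* (44.3 CPM), and muscle 12 for *Abi2* (7.74 CPM) and *Adgrl3* (0.867 CPM). *Padi4* was high in spindle 13 (3.29 CPM) and *Padi1* in spindle 12 (0.347 CPM, from 6 reads). *Adgrl3* was low in spindle 16 (0.721 CPM), where the next library was at 4.33 CPM. Of the 11 libraries so marked, 4 were muscle 10 and 3 were muscle 12.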

How the results depend on the processing

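All 7 genes passed the call rule in the higher direction under every alternative that gives a call, and their log2 fold changes ranged over all alternatives from 9.42 to 11.16 (*Fam240b*), 7.68 to 8.59 (*Msln*), 5.78 to 6.39 (*Padi2*), 5.79 to 6.39 (*Cyfip2*), 4.0 to 4.9 (*Tenm2*), 3.49 to 4.08 (*Ndrg4*) and 2.86 to 3.86 (*Vat1l*). Over all genes, 2470 were higher and 403 lower in spindle; library size alone gave 3522 and 140, and leaving out spindle 10, 12 and 13 gave 1576 and 346. Leaving out 1 library gave 2132 to 2716 higher and 327 to 535 lower. With the mouse as a block, which the pairing allows, 2207 were higher and 411 lower, and of the relatives 10 were higher and 0 lower, since *Flrt1* (1.73, adjusted p = 0.082) and *Fxr1* (-0.99) lost their calls; no other call of a relative changed with the block.

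Of the relatives, 11 were called higher and 1 lower. Leaving out 1 library gave 9 to 12 higher and 0 to 1 lower. The lower call, *Fxr1*, gave 0 with library size alone (-0.71), after filterByExpr (-0.95), with DESeq2 (-0.95) and without spindle 10, 12 and 13 (-0.95). With library size alone *Vat1* (1.21), *Tenm3* (1.12), *Tenm4* (1.43) and *Flrt2* (1.08) were called as well. *Muc16* lost its call with limma-voom (2.68, adjusted p = 0.090) and without spindle 10, 12 and 13 (0.79). Of the spindle libraries then left, spindle 9 held 1 read of it and spindle 16 held 0. *Tenm1* was called without spindle 16 (2.63) and *Tenm4* without muscle 12 (1.44), without spindle 16 and muscle 12 (1.55, where *Tenm1* was called too, at 3.19) and with limma-voom (adjusted p = 0.033). Relatives near 0 changed sign. *Brk1* came to 0.30 with library size alone, 0.069 with filterByExpr, 0.066 with DESeq2 and 0.016 without spindle 16 and muscle 12, and *Ndrg3* to 0.24, 0.018 and 0.015 in the first 3. *Wasf2* and *Adgrl4* came to -0.052 and -0.045 with the block and to -0.23 and -0.25 with the median gene set to 0. Without spindle 10, 12 and 13 they came to -0.056 and -0.14, and *Abi3* to -0.10. *Tenm1*, at 2.23 in the main fit, came to -4.0 in that setting. The spindle libraries left, 9 and 16, had 0 reads of *Tenm1*, against 9 in muscle, so this value depends on the fit. With the median gene at 0, *Cyfip1* (-0.014), *Nckap1* (-0.22) and *Abi1* (-0.11) changed sign and *Wasf3* (0.88) lost its call. Leaving out 1 library gave *Wasf2* -0.045 to 0.19, *Brk1* -0.11 to 0.056 and *Adgrl4* -0.11 to 0.20. The causes were not tested.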
